A study of Homo sapiens with 32 samples.

Results

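The bases described here carried iCLIP tags of the mRNA export receptor Nxf1 and of nothing else in the series. In iCLIP, UV light crosslinks protein to RNA in living cells, the protein is immunoprecipitated, and the cDNA tends to end 1 base short of the crosslink. A tag is 1 cDNA, and the listed base is where it met the protein. A base was taken as Nxf1-only when Nxf1 replicates 2 and 3 both listed it, on the same strand, and no library of Alyref, Chtop or the Control did. The members were thus chosen by their measured tags, and those tags describe them without testing anything. The rule found 837 bases among the 6753 that both Nxf1 libraries listed, and among 2502262 bases listed by any library once the mitochondrial chromosome was left out.

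The libraries came from FlpIn cells, which the labels name both HEK293T and FlpIn-293, an embryonic kidney line built to take up a transgene at 1 fixed site. FLAG-tagged Nxf1, Alyref or Chtop was made from a tetracycline-inducible transgene for 48 h, at 5 ng/mL of tetracycline for Nxf1 and 10 ng/mL for the other 2 proteins, and anti-FLAG antibody recovered it beside the cells' own untagged protein. The Control cells carried an empty FLAG construct and went through the same anti-FLAG immunoprecipitation, and no tetracycline dose is given for them. Each of the 4 groups had 3 libraries, sequenced as 8 lane runs per group, and the labels do not say whether the replicates were separate cultures. In every group replicate 2 carried the HiSeq labels 5 and 6, and replicates 1 and 3 the HiSeq labels 7 and 8. Replicates 1 and 2 also had a MiSeq lane run. The 2 replicates of the rule thus shared no lane label. The paper describes 4 HiSeq lanes and 1 MiSeq lane, so these labels are not taken as separate runs. Nxf1 replicates 1, 2 and 3 held 8134, 119191 and 179346 tags. The Alyref and Chtop libraries ranged from 47052 to 631704 tags and the Control libraries from 7017 to 46628, so absence from the Control was judged at the lowest depth.

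Nxf1, as the heterodimer with its partner Nxt1, carries mRNPs through the nuclear pore. It binds RNA weakly on its own and is handed its cargo by adaptors such as Alyref and by SR proteins, while Chtop and Alyref reach the RNA as part of TREX. One class of RNA binds it directly: the constitutive transport element of retroviral RNA and the related element in an intron of its own transcript. Many abundant small RNAs, among them 7SL (the RNA of the signal recognition particle), Y RNAs, 7SK, 5S rRNA and U6, are made by RNA polymerase III and are not regarded as its usual cargo.

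The sequences below show the kinds of RNA that made up the set. They were read from GRCh37 (hg19) on the strand of the tags, 5′ to 3′, and capitals mark the Nxf1-only bases.
7SL gene RN7SL2, chr14:50329342-50329362 (−): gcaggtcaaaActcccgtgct
7SL gene RN7SL3, chr14:50320493-50320521 (−): cgcactgAgttcggcatcaAtAtggtgac
7SL pseudogene RN7SL665P, chr9:133275769-133275798 (+): ctaagttcagcaTcAATAtggtgacctccc
U4 snRNA gene RNU4-2, chr12:120729596-120729625 (−): cccGccatgacgactTgaaatatagtCggc
U4 pseudogene RNU4-82P in GOLGA1, chr9:127649775-127649804 (−): tagccaatgaggtCTaTccgaggcgcgatt
ribosomal DNA-like locus in ANKRD30BL, chr2:133012775-133012804 (−): cagtttagAccagagcgaaaGCatttgcca
tRNA-like locus outside annotated genes, chr1:161420497-161420525 (+): ctgccacgcgGgaggCccGggttcgattc
NXF1, chr11:62567036-62567063 (−): cggtggatggctgGTtagccagagacgg
ZNF598, chr16:2048948-2048977 (−): caccacaaaaGcgtaagtGTgggtgagctg
SENP6 intron, chr6:76339776-76339805 (+): tgtgataacttttTTTTttttttttttgag
PRDX1 3′ UTR, chr1:45976929-45976949 (−): cctcttctgtAtttttttttt
The 7SL, U4 and ribosomal sequences stand for the small RNA families and ribosomal DNA, which together matched 33.0% of members. The NXF1 bases stand for the transcript of the protein itself, and the ZNF598, SENP6 and PRDX1 bases for members in mRNA genes. The PRDX1 base had the most tags of all.

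Most members rested on very few tags. At 756 of the 837 bases (90.3%) each of the 2 Nxf1 libraries had 1 tag, and 15 bases had 2 or more in both. The base in the 3′ UTR of PRDX1, which encodes a peroxiredoxin, had 4 and 6 tags in replicates 2 and 3, and 3 Alyref, 2 Chtop and 4 Control tags lay within 15 nt of it. The next was in an intron of ENSG00000269237, at chr19:21623442 (+), with 2 and 4. Bases in an intron of PRDX5, another peroxiredoxin, in RN7SL2, in RNU4-82P and in RN7SL665P followed with 2 and 3 tags each, together with 1 base outside annotated genes on chromosome 8 with 3 and 2. Another 14 bases had 4 tags in sum, among them 1 each in the coding sequence of RPLP0, a ribosomal stalk protein gene, and the 3′ UTR of RNF215.

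The rule ends at a single outside tag. Beyond the 837 bases with 0 tags of other groups, 781 had 1, 799 had 2, 740 had 3, 724 had 4 and 2872 had 5 or more. The single outside tag was from Alyref at 455 of the 781 bases, from Chtop at 237 and from the Control at 89. The same rule gave 13208 Alyref-only bases of 24399 (54.1%), 12986 Chtop-only of 22072 (58.8%) and 35 Control-only of 1591 (2.20%), against 12.4% (95% Wilson interval 11.6 to 13.2) for Nxf1. The groups differ in depth, which moves such shares, and its part in them was not tested. The intervals cover counting error only, because neighbouring bases are not independent.

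Nxf1 replicate 1 took no part in the rule and listed 4 of the 837 members (0.478%, 0.186 to 1.22), against 549 of the 5916 bases shared with another group (9.28%, 8.57 to 10.0). The 4 were in an intron of PID1, in the coding sequence of TBC1D10B, in the 3′ UTR of SRSF1 and outside annotated genes, the first and last of them matching ribosomal DNA. With 8134 tags this library could list few bases of any set.

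Most of the set lay close to tags of other groups. The median distance from a member to the nearest base listed by Alyref, Chtop or the Control was 2 nt, and 359 members (42.9%) had such a base right beside them. Within 15 nt on the strand, 520 members had an Alyref tag, 454 a Chtop tag and 314 a Control tag, which left 260 (31.1%, 28.02 to 34.28) with none. The corresponding share was 34.7% of Alyref-only and 28.7% of Chtop-only bases. Only 112 members (13.4%) were over 1000 nt from any base of another group. Most members were thus exact positions that the other libraries did not list, within 15 nt of positions that they did list.

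The surroundings gave the same picture by library. Tags at 1 to 15 nt from a member, member bases left out, made up 1.50% (exact 95% interval 1.25 to 1.79) of Nxf1 replicate 1, 1.74% of replicate 2 and 1.47% of replicate 3. Control replicates 1, 2 and 3 had 0.955%, 1.52% and 1.87%, so that the Nxf1 and Control ranges overlapped. Alyref and Chtop replicate 1 had 1.102% and 1.211%, and their replicates 2 and 3 between 0.258% and 0.390%. Some members matched a small RNA family or ribosomal DNA, both called family-matched and described next. Around these Control replicates 1, 2 and 3 had 0.741%, 1.22% and 1.49%, against 1.27%, 1.26% and 1.07% in the 3 Nxf1 libraries. Around the other members Nxf1 replicates 2 and 3 had 0.507% and 0.408%, Nxf1 replicate 1 had 0.258% (0.160 to 0.394), and the Control libraries ran from 0.214% to 0.398%.

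**Figure D1:**
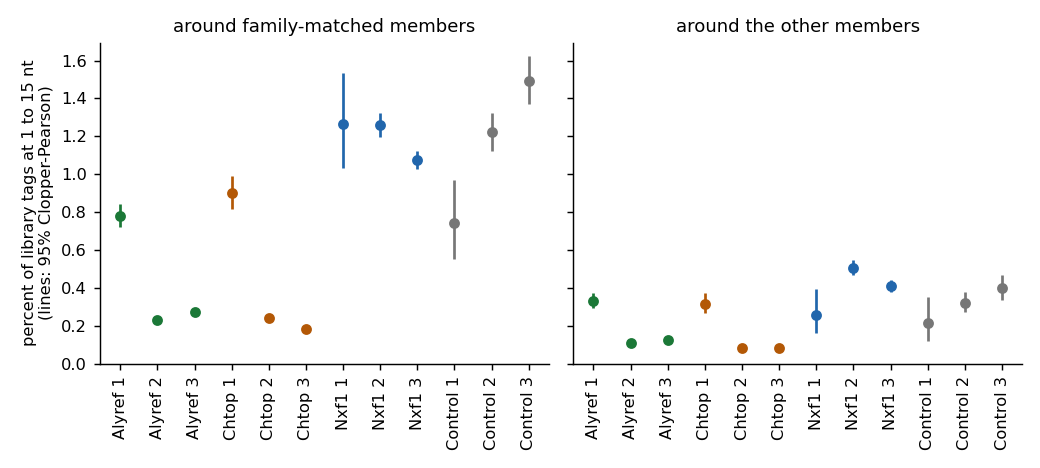
Tags at 1 to 15 nt from Nxf1-only bases as a percentage of each library's tags (y axis). Members that matched a small RNA family or ribosomal DNA are on the left and the others on the right. Points are the 12 libraries, coloured by group, and lines are 95% Clopper-Pearson intervals. Control replicates 2 and 3 (1.22% and 1.49%) lie within and above the Nxf1 range around family-matched members (1.07% to 1.27%), and within it around the others (0.322% and 0.398%, against 0.258% to 0.507%). Control replicate 1 lies below the Nxf1 range in both panels (0.741% and 0.214%).

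By annotation, members lay outside annotated genes (302 bases, 36.1%), in introns (208, 24.9%) and in non-coding exons (187, 22.3%) more than in coding sequence (70, 8.36%), 3′ UTRs (58, 6.93%) and 5′ UTRs (12, 1.43%). The bases of both Nxf1 libraries that another group also listed held much less coding sequence (1.06%, 0.833 to 1.36) and 3′ UTR (1.44%, 1.16 to 1.77) and more sequence outside genes (49.4%). All bases of Nxf1 replicates 2 and 3 had more intron (42.7% and 46.9%) and less non-coding exon (8.06% and 7.08%) than the members. The 2 replicates themselves differed in coding sequence, 15.8% and 7.80%, and in 3′ UTR, 15.5% and 7.62%, so that the members (8.36% and 6.93%) were close to replicate 3 and below replicate 2. Alyref-only bases were 45.8% coding sequence and Chtop-only bases 37.5% coding sequence and 43.6% 3′ UTR, so the Nxf1-only set was the less exonic one. Bases are not replicates and there is 1 set per group, so these shares are descriptions.

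**Figure D2:**
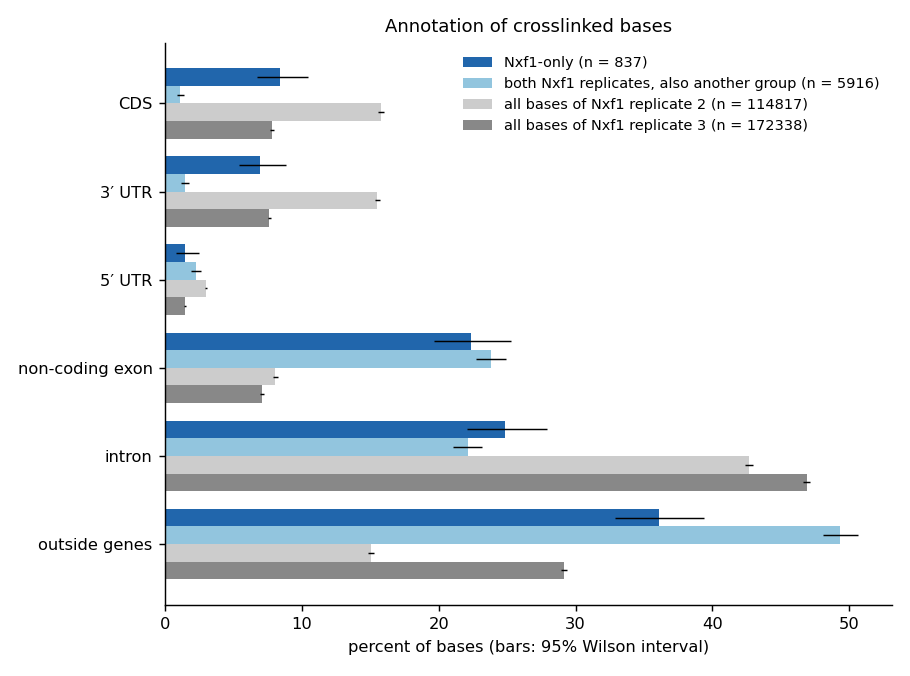
Percentage of bases (x axis) in each annotation class for the 837 Nxf1-only bases, the 5916 bases of both Nxf1 replicates that another group also listed, and all bases of Nxf1 replicates 2 and 3; error bars are 95% Wilson intervals. Coding sequence and 3′ UTR are larger in the Nxf1-only set than among the 5916 (8.36% against 1.06% and 6.93% against 1.44%), non-coding exon is alike in both (22.3% and 23.8%), and intron is smaller than in either whole library.

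Many members came from small RNA families and ribosomal DNA. The 30 bases after the crosslinked base, where a read would start, were matched with up to 3 edits. The references were 7SL, Y, 7SK, vault, RMRP, 5S and spliceosomal RNA genes and a ribosomal DNA unit. Of the 837 members 276 (33.0%, 29.9 to 36.2) matched: 118 ribosomal DNA, 50 spliceosomal snRNAs, 47 7SL, 46 Y RNAs, 9 7SK, 5 5S and 1 RMRP. A further share lay near a B box, the internal promoter element of tRNA genes (letters GTTCGANTC, searched on the RNA strand within 100 nt): 3.94% of members and 5.68% of the shared bases, against 0.910% and 0.450% of all bases of Nxf1 replicates 2 and 3. Only 5.95% and 5.79% of the bases of those 2 libraries matched a family, but 62.3% (61.1 to 63.6) of the 5916 bases shared with another group did. Bases that 2 libraries both hit were therefore rich in these RNAs whether or not another group hit them, and the Nxf1-only ones less so. Reads were kept only when they mapped to 1 place, which favours positions where copies differ. Even so, the 30 bases occurred exactly at 2 or more places in the genome for 232 of the 837 members (27.7%). Among the shared bases the figure was 32.9%. The placement of a tag within a family is therefore uncertain.

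7SL had the highest Nxf1-only share of the families matched. Of the 66 bases matched to 7SL in both Nxf1 libraries, 47 (71.2%, 59.4 to 80.7) were listed by no other group. The share was 4.29% (3.59 to 5.11) for ribosomal DNA, 2.80% for U2, 5.56% for U5, 6.80% for U6, 6.85% for 5S and 8.41% for 7SK. It was 16.2% (12.4 to 20.9) for Y RNAs, 19.4% for U4, 23.5% for U12 and 26.0% (15.9 to 39.6) for U1, and 0 of 83 bases matched to vault RNA were Nxf1-only, which allows up to 4.42% by the Wilson interval. These shares are the outcome of the rule, and the 7SL bases lay in runs at a few loci, so the intervals test nothing.

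**Figure D3:**
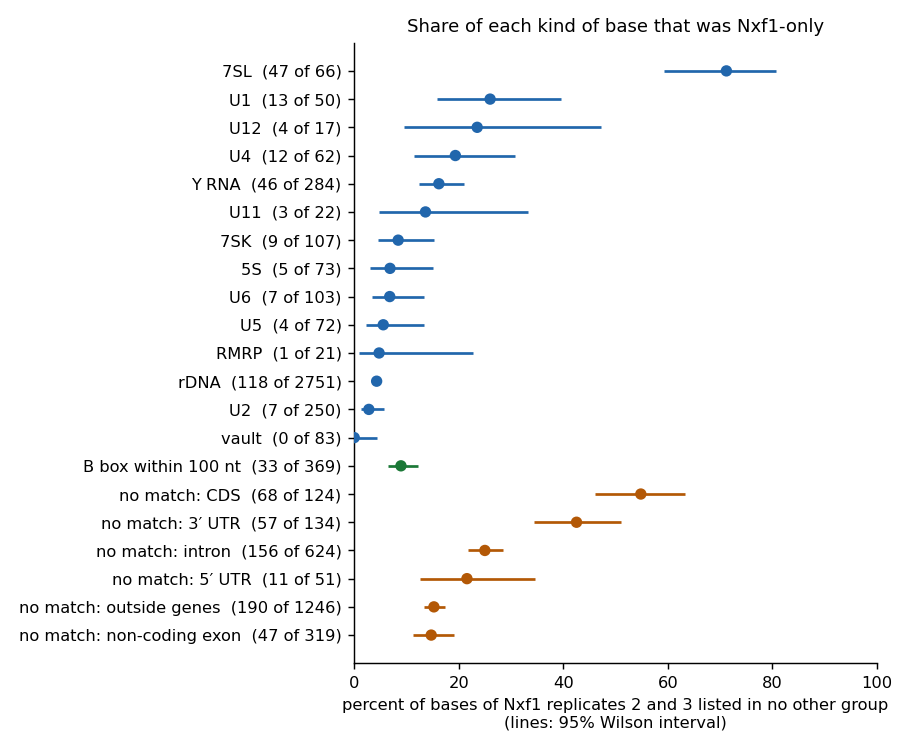
Percentage of the bases in both Nxf1 replicates that no other group listed (x axis), by kind of base. Small RNA families and ribosomal DNA are in blue and bases near a B box in green. Bases with no family match and no B box are in orange, by annotation class. Lines are 95% Wilson intervals and each label gives the count. 7SL (71.2%) and unmatched coding sequence (54.8%) stand at the right, ribosomal DNA (4.29%) and vault RNA (0 of 83) at the left.

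The 7SL members were spread over several loci and gathered in part of the molecule. The longest run of members in the set, 9 bases within 15 nt of each other, was in RN7SL2 at chr14:50329319-50329357 (−), with 10 tags in replicate 2 and 13 in replicate 3. The next, 6 bases at chr14:50053503-50053537 (+), matched 7SL but had no annotated gene, and the third, 5 bases, was in RN7SL665P, which lies within HMCN2 and AL354898.1. RN7SL2 held 10 members, each of which also lies in the overlapping lncRNA gene ENSG00000282885, RN7SL3 held 4, and 12 annotated 7SL pseudogenes held members. Placed on the 297-nt RN7SL2 transcript, 40 of 46 members fell between nt 101 and 250, against 51 of the 65 placed 7SL bases of both Nxf1 libraries whether or not another group listed them. None of the members fell below nt 78, and they took 31 distinct nucleotides. The ends of 7SL resemble Alu repeats, which descend from it, and the middle does not.

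Over all 7SL tags with the member bases left out, Nxf1 replicates 1, 2 and 3 had 7.38, 24.2 (exact interval 21.5 to 27.1) and 52.1 per 10000 library tags, and the Control 12.8, 17.4 and 24.9 (20.1 to 30.5), so that Nxf1 replicate 2 and Control replicate 3 overlapped. Alyref and Chtop libraries had between 5.53 and 13.4. Most of these tags lay outside nt 101 to 250, the stretch picked from the members, with nt 1 to 50 the densest tile. Between nt 101 and 250, Nxf1 replicates 2 and 3 had 93 and 271 tags off the members, or 7.80 (exact interval 6.30 to 9.56) and 15.1 (13.4 to 17.0) per 10000 library tags. Nxf1 replicate 1 had 1 tag, 1.23 per 10000, with an upper limit of 6.85. Alyref replicates 1, 2 and 3 had 0.615, 0.237 and 0.680 per 10000, Chtop 1.06, 0.278 and 0.256, and the Control 1.43, 0.858 and 0.811, from 1, 4 and 3 tags. In this stretch every Alyref, Chtop and Control library, and Nxf1 replicate 1, was below Nxf1 replicates 2 and 3. Control replicate 1 had an upper limit of 7.94, so at its depth a level like that of Nxf1 replicate 2 could not be told apart from its own. At nt 1 to 50, where the match is shared with Alu repeats, Control replicates 1 to 3 had 8.55, 10.3 and 14.9 tags per 10000 and overlapped the 8.14 and 19.2 of Nxf1 replicates 2 and 3. The contrast is the one the rule used, so it has no test.

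**Figure D4:**
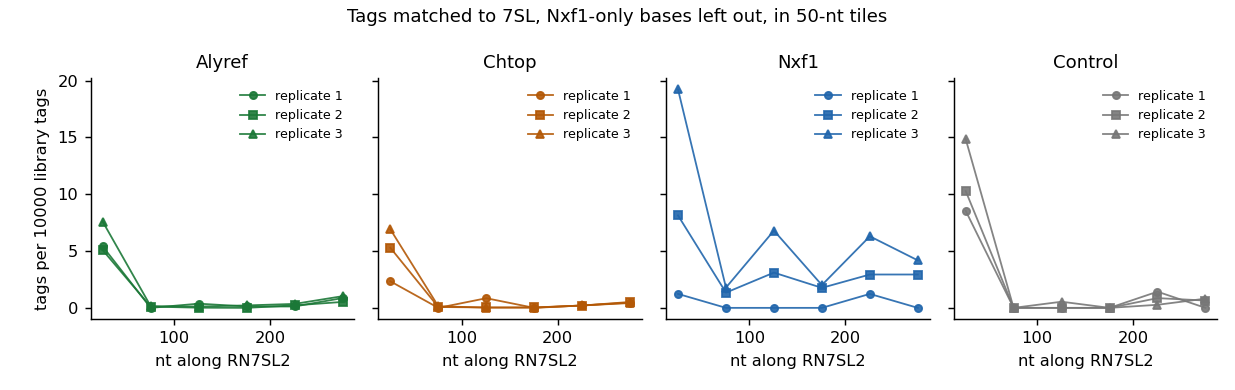
Tags matched to 7SL per 10000 library tags (y axis) in 50-nt tiles along the 297-nt RN7SL2 transcript (x axis), with the Nxf1-only bases left out, in the 4 groups; each line is a replicate. All groups have tags at nt 1 to 50, whereas at nt 101 to 150 Nxf1 replicates 2 and 3 have 3.10 and 6.80 per 10000 and every other library has 0.850 or less.

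Single 7SL genes had few tags once their members were left out. RN7SL2 then had 0, 15 and 18 tags in Nxf1 replicates 1, 2 and 3, against 0, 3 and 5 in Alyref, 1, 7 and 3 in Chtop and 1, 2 and 0 in the Control. Per 10000 tags this was 1.26 and 1.00 in Nxf1 replicates 2 and 3, against 1.43, from 1 tag, in Control replicate 1 and 0.429 or less elsewhere. RN7SL3 off members had 1, 3 and 21 tags in the Nxf1 libraries and at most 5 in any other. RN7SL665P had 0, 1 and 9, and a single tag in 1 of the 9 other libraries.

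The spliceosomal snRNAs, which act in the nucleus, contributed 13 members matched to U1, 12 to U4, 7 each to U2 and U6, 4 each to U5 and U12 and 3 to U11. Together they were 5.97% of members and 8.94% of the shared bases. RNU4-2, one of the functional U4 genes, held 4 members and had, off those, 2, 67 and 58 tags in the Nxf1 libraries. Per 10000 that was 2.46, 5.62 and 3.23, against 4.28, 3.86 and 2.97 in the Control and 0.466 to 1.60 in Alyref and Chtop, so Nxf1 and Control overlapped. ENSG00000270103, which resembles annotated U11 copies in sequence and was taken as U11, held 6 members and had 4.92, 4.03 and 1.95 tags per 10000 off them in Nxf1, against 2.85, 0.858 and 1.62 in the Control. ENSG00000270022, whose start resembles an annotated U12 copy and was taken as U12, held 4 members, with 3.69, 2.94 and 1.39 off them in Nxf1 and 0, 2.36 and 1.89 in the Control. Both of these, U11 and U12 being RNAs of the minor spliceosome, were at or below 1.60 per 10000 in every Alyref and Chtop library. The U1 pseudogene RNU1-89P held 4 members, and the 3 members of GOLGA1 were all in the U4 pseudogene RNU4-82P inside it, where no other group had a tag within 15 nt.

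Of the families matched, ribosomal DNA gave the most members, 14.1% (11.9 to 16.6). Among the shared bases it made up more, 44.5% (43.2 to 45.8). ANKRD30BL held 16 members, the most of any gene, 14 of them matched to ribosomal DNA, a copy of which lies within it on chromosome 2. Off members it had 65.2, 54.9 and 41.7 tags per 10000 in Nxf1 replicates 1, 2 and 3 and 49.9, 60.5 and 79.8 in the Control, so the groups overlapped, with 33.1, 9.93 and 10.6 in Alyref and 53.1, 11.7 and 9.38 in Chtop. The lncRNA gene ENSG00000283907 owed 5 of its 6 members to ribosomal DNA, and EYA4 and RYR2, a transcriptional coactivator and a calcium channel gene, owed it 3 of 4 each. Over the whole family, member bases left out, Nxf1 had 643, 458 and 371 tags per 10000 and the Control 462, 560 and 605. Y RNA tags, likewise off members, were 40.6, 56.8 and 71.9 in Nxf1 and 34.2, 29.4 and 87.1 in the Control, again overlapping. Of the Y RNA members 23 lay in 20 loci annotated only as Y_RNA, and the functional genes RNY3 and RNY4 held 1 each.

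The 529 members with no family match and no B box nearby were 190 bases outside genes, 156 in introns, 68 in coding sequence, 57 in 3′ UTRs, 47 in non-coding exons and 11 in 5′ UTRs. They were 21.2% (19.6 to 22.8) of the 2498 bases of this kind that both Nxf1 libraries listed. By class, this Nxf1-only share was 54.8% (46.1 to 63.3) in coding sequence, 42.5% (34.5 to 51.0) in 3′ UTRs and 25% (21.8 to 28.5) in introns. It was 21.6% (12.5 to 34.6) in 5′ UTRs, 14.7% (11.3 to 19.0) in non-coding exons and 15.2% (13.4 to 17.4) outside genes. These shares too are the outcome of the rule and were not tested. Coding and 3′ UTR bases of this kind hit in both Nxf1 libraries were few, 124 and 134.

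The members in mRNA genes were scattered. In all, 310 protein-coding genes held a member and 268 of these held 1. Among exonic members EEF1A1 and EEF2, the translation elongation factors, held 3 each. So did the ribosomal protein genes RPL13 and RPS4X, the insulin receptor substrate IRS4 and RP6-24A23.6. RPLP0, ACTB, TUBB, TMED10, MRPS16, NXF1 and PRRC2B held 2 each (NXF1 and PRRC2B aside, genes picked after their counts were seen). Of the 70 members in coding sequence 10 (14.3%, 7.95 to 24.3) were in 7 ribosomal protein genes, against 3.22% and 2.77% of the coding bases of Nxf1 replicates 2 and 3 and 12.7% (6.58 to 23.1) of the coding bases shared with another group. This share was likewise looked at after the values were seen. It did not differ between Nxf1-only and shared bases beyond their intervals.

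ZNF598, which encodes a ubiquitin ligase that senses collided ribosomes, held 4 members with 5 tags in replicate 2 and 4 in replicate 3, and no other group had a tag within 15 nt of any. Over the rest of the gene it had 0, 1.76 and 0.669 tags per 10000 in Nxf1, 0.861, 1.19 and 0.978 in Alyref and 0.425, 1.13 and 1.28 in Chtop, so the ranges overlapped. SENP6, a SUMO protease gene, held a run of 4 members in an intronic tract of uracils, also without other tags within 15 nt, and had, off them, 1.68 and 1.45 tags per 10000 in Nxf1 replicates 2 and 3 among 1.43 to 2.57 in the other 10 libraries. PRRC2B held 4 members, 2 in introns and 2 in coding sequence. The lncRNA XIST held 6 and ENSG00000275016 held 5. Off members XIST had 118, 39.6 and 43.9 tags per 10000 in Nxf1 replicates 1, 2 and 3. Alyref had 47.1, 66.5 and 68.8, Chtop 74.4, 68.3 and 73.7 and the Control 89.8, 83.6 and 63.0. Nxf1 replicates 2 and 3 were thus below every library of the other groups. ENSG00000275016 had 3.69, 3.10 and 3.29 off members in Nxf1 and 0, 3.43 and 5.41 in the Control.

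The transcript of the receptor itself held an adjacent pair. Bases 62567049 and 62567050 of chromosome 11, on the minus strand, had 1 tag each in Nxf1 replicates 2 and 3, and no tag of another group lay within 15 nt. They lie in intron 10 of the canonical NXF1 transcript (chr11:62566048-62567848, 1801 nt), 799 and 800 nt from its 5′ splice site, and in the 3′ UTR of another annotated transcript, which is why they count as 3′ UTR above. Intron 10 of NXF1 is the one known to carry the transport element. With the 2 bases left out, the intron still had 11 and 8 tags in Nxf1 replicates 2 and 3, or 0.923 and 0.446 per 10000 library tags, and 0 in replicate 1. Alyref replicates 1, 2 and 3 had 1, 12 and 9 tags there (0.123, 0.190 and 0.149 per 10000), Chtop 0, 4 and 4, and the Control 0, 1 and 0. Both deeper Nxf1 libraries were above all 9 libraries of the other groups. However, 0 tags leave upper limits of 5.26, 0.998 and 0.784 per 10000 in Control replicates 1 and 3 and Chtop replicate 1. Control replicate 2 and Alyref replicate 1 rest on 1 tag each, which in Alyref replicate 1 leaves an upper limit of 0.685. At the depth of all these libraries, a level like that of Nxf1 replicate 3 could not be told apart from their own. In the Control libraries neither could a level like that of Nxf1 replicate 2.

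As a share of all NXF1 tags, member bases left out, the intron held 11 of 37 tags in Nxf1 replicate 2 (29.7%, exact interval 15.9 to 47.0) and 8 of 30 in replicate 3 (26.7%, 12.3 to 45.9). The share was 12.6% (6.70 to 21.03) of 95 tags in Alyref replicate 2, 13.6% of 66 in Alyref replicate 3, 7.84% (2.18 to 18.9) of 51 in Chtop replicate 2 and 17.4% (4.95 to 38.8) of 23 in Chtop replicate 3. The intervals of the Nxf1 libraries overlapped all of these, and the remaining libraries had 8 NXF1 tags or fewer.

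Of 36 mRNA export genes only NXF1 held any, its 2 bases making up 0.239% of members against 0.345% and 0.233% of all bases of Nxf1 replicates 2 and 3, and of 12 genes of export adaptors of the SR family only SRSF1 (3′ UTR) and SRSF11 (coding sequence) did, with 1 base each, or 0.239% of members against 0.205% and 0.0888% of all bases. The 14 exon junction complex genes held 0 members, which their 0.110% and 0.0644% of all bases leave uninformative. In a list of nuclear lncRNAs that does not include XIST, MALAT1 held 3 members and JPX 1, 0.478% of members against 0.420% and 0.287% of all bases of Nxf1 replicates 2 and 3. Annotated RNA polymerase III genes held 18 members in 6 of 18 genes (RN7SL2, RN7SL3, RN7SK, RMRP, RNY3 and RNY4), which was 2.15% (1.36 to 3.37) of members, 3.31% of the shared bases, and 0.337% and 0.204% of the bases of the 2 libraries.

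The 208 intronic members were mostly deep in their introns. The median distance to the nearest splice site was 1969.5 nt, with 31 within 200 nt and 9 within 50 nt. Of the 302 members outside genes 89 matched a family, 66 of them ribosomal DNA, and 24 lay near a B box. A gene lay on the opposite strand at some of these bases (123), and 81 of the 302 were within 5000 nt past the end of a gene on their own strand.

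Uracil, the base to which UV crosslinks form most readily, was the crosslinked base at 39.7% of members (36.4 to 43.0). Guanine made up 22.1%, adenine 19.4% and cytosine 18.9%. The shared bases had 36.2% uracil (35.0 to 37.4), whereas all bases of Nxf1 replicates 2 and 3 had 53.2% and 54.1%, Alyref-only bases 64.7% and Chtop-only bases 71.9%. The members thus had the flatter composition of bases hit in 2 Nxf1 libraries, and it was flat among isolated ones too, with 39.6% (33.9 to 45.7) of the 260 without other tags within 15 nt. Members matched to a small RNA family or ribosomal DNA had 31.2% uracil (26.0 to 36.9) and the other 561 had 43.9% (39.8 to 48.0).

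**Figure D5:**
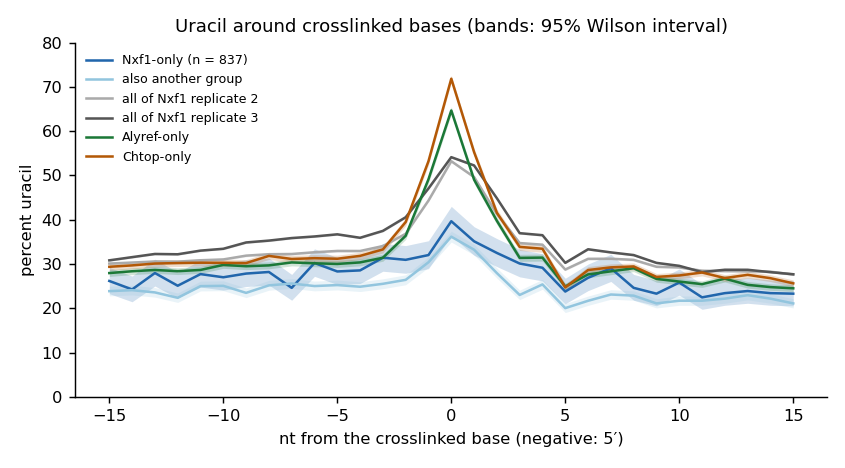
Percentage of uracil (y axis) from 15 nt before to 15 nt after the crosslinked base (x axis) in 6 sets of bases; bands are 95% Wilson intervals. The Nxf1-only line peaks at 39.7% at the base itself, close to the shared bases (36.2%) and below the whole Nxf1 libraries (53.2% and 54.1%) and the Alyref-only and Chtop-only bases (64.7% and 71.9%).

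Uracil was also lower beside the base than in the libraries. It was 32.0% 1 nt before and 35.1% 1 nt after the members, against 44.3% and 49.6% in all of Nxf1 replicate 2 and 47.1% and 52.3% in all of replicate 3. Of 5 short motifs searched in the 21 bases centred on the base, on the RNA strand only, TTTTT was in 12.4% of members (10.4 to 14.8), 4.33% of shared bases, and 18.1% and 25.3% of all bases of the 2 libraries. GGACT was in 2.15% (1.36 to 3.37) against 1.27% and 1.02%, and GTAAGT in 0.597% (0.255 to 1.39) against 0.294% and 0.234%. AATAAA was in 0.717% (0.329 to 1.56) against 0.739% and 0.831%. TGTGT was in 0.956% (0.485 to 1.87) of members against 2.89% and 2.65%. Among the shared bases GGACT was in 1.52%, GTAAGT in 0.203%, AATAAA in 0.389% and TGTGT in 1.08%. For GGACT and TGTGT the shared value lay within the interval of the members. The 4-letter words found most often were TTTT in 18.0% of members, TTTG in 13.4%, and CTGG and GGAG in 12.4% each. CTGG and GGAG were in 9.48% and 8.05% of all bases of replicate 2, and TTTT in 29.8%. Among the shared bases CTGG was in 12.4%, GGAG in 9.96%, TTTT in 9.25% and TTTG in 11.3%.

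Tracts of 9 or more uracils, as at SENP6 and next to the PRDX1 base, were within 10 nt of 44 members (5.26%, 3.94 to 6.98). This was more than among the shared bases (0.778%, 0.583 to 1.04) close to all bases of replicate 2 (5.21%) and less than those of replicate 3 (7.94%). These tracts too were looked at after the values were seen.

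The 260 isolated members differed in make-up from the other 577. Introns held 36.5% of them (30.9 to 42.5) and 19.6% (16.6 to 23.0) of the others, and non-coding exons 10.8% (7.56 to 15.1) and 27.6% (24.1 to 31.3). A family match was found at 13.5% (9.84 to 18.2) against 41.8% (37.8 to 45.8), and ribosomal DNA at 2.31% against 19.4%. 7SL was found at 5.38% and 5.72%, a difference within the intervals. The 30 read-side bases occurred once in the genome at 82.3% of the isolated members and 67.8% of the others.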

How the data were processed

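iCLIP libraries of FLAG-tagged Nxf1, Alyref and Chtop and of a Control (32 lane runs, 12 libraries) were used as deposited. The authors mapped reads over a minimum length uniquely to hg19, removed duplicates by random barcodes and deposited, per library, counts of tags at each crosslinked base and strand, the base before the read or its most 5′ deletion. The submitters' processing notes name Bowtie 1.1.2, UMI-tools 0.5.3 and STAR 2.4.2a. A tag is thus 1 barcoded cDNA, and short or repeated sequence is lost where it maps to several places. The 4 pooled tables of the groups were not used, and 0 columns of per-sample values were left out.

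Members were found by position and strand, mitochondrial bases left out. Each base was annotated on its strand with GENCODE release 44 mapped to GRCh37, any transcript counting, where transcripts disagreed taking coding sequence first, then 3′ UTR before 5′ UTR, then other exons and last introns. The 30 bases after each listed base were aligned (edlib 1.3.9.post1, up to 3 edits) to 26 small RNA genes, of U12 the first 150 nt, and to the ribosomal DNA unit of contig GL000220.1, and their exact copies in the genome were counted. tRNA genes were not annotated here, and a B box stood for them. Tags per 10000 are relative to a library's tags. Shares have 95% Wilson intervals, tags per library Clopper-Pearson intervals, and no test was run because the rule used the contrast and bases are not replicates. Counting code was tested on simulated data. Python 3.11.15, numpy 2.4.6, pandas 2.3.3, SciPy 1.17.1 and pysam 0.24.0 were used.

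Named were the 20 genes with most members, the 15 members with most tags and every gene of 5 lists with a member; other names are marked as picked after their counts were seen. The members, lists and motifs were chosen with earlier results of these data known.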

Additional observations from a re-analysis of the deposited data

How the results depend on the processing

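The number of Nxf1-only bases depended on the rule. Requiring any 2 of the 3 Nxf1 libraries gave 899 bases and merging bases within 15 nt gave 751. Absence from the Control only gave 3546, 2 tags in each of replicates 2 and 3 left 15, and an exclusion within 5 nt or 15 nt left 317 or 260. Leaving out 1 library at a time gave 17 to 1071 bases. The low values, 17 without Nxf1 replicate 3 and 53 without Nxf1 replicate 2, pair a library with the shallow replicate 1, and leaving out a library of another group gave 840 to 1071. Over the same omissions introns ranged from 11.8% to 49.1%, 3′ UTR from 5.97% to 35.3%, coding sequence from 1.89% to 17.6%, sequence outside genes from 17.6% to 38.2% and uracil from 35.3% to 54.7%. With only libraries of other groups left out, each share stayed within its interval.

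With absence from the Control only, 3′ UTR was 3.38%, coding sequence 3.21% and sequence outside genes 44.8%. With 2 tags in each library, coding sequence was 0% and uracil 6.67%, of 15 bases. Introns rose to 35.6% with an exclusion within 5 nt, and with one within 15 nt introns were 36.5%, coding sequence 5.38% and sequence outside genes 40.0%. With canonical transcripts only, 51.3% lay outside genes. As alternatives added after seeing the data, members with no family match and no B box had introns at 29.5%, 3′ UTR at 10.8%, coding sequence at 12.9% and uracil at 45.6%, and members whose read-side bases occur once in the genome moved no share beyond its interval. No paired analysis was possible because no result comes from a test, although libraries of the same replicate number shared lane labels across groups. The cause of these shifts was not tested. At 756 members each library had 1 tag.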
